A study of Mus musculus with 4 samples.

Results

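Voltage-gated calcium and sodium channels open when the membrane depolarises and let calcium or sodium into the cell. The genes considered here are those with a symbol beginning with Cacna1, Cacna2d or Cacnb, or of the form Scn followed by a number and a letter a or b, and they were taken by symbol alone. They were measured by 36 transcript clusters for 32 genes, out of 33793 clusters on the array, of which 26688 carried a symbol. A transcript cluster groups the probes placed along the exons of 1 locus. Calcium channel genes accounted for 20 clusters of 18 genes and sodium channel genes for 16 clusters of 14 genes. The RNA was total RNA of whole brain, from female adult 129SV mice, on 2 wild-type and 2 Adar2 knockout arrays. Per the study's methods, both genotypes were siblings from an intercross of heterozygotes and both carried a Gria2 R/R allele, which encodes the pre-edited form of a glutamate receptor subunit and keeps the knockout alive. The arrays therefore compare loss of ADAR2 on a background in which that receptor no longer needs editing.

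A pore-forming subunit, called alpha1 in calcium channels and alpha in sodium channels, carries the voltage sensor and the ion path. Auxiliary subunits, alpha2delta and beta in calcium channels and a different beta family in sodium channels, set how much channel reaches the membrane and how it gates. In the brain, L-type channels couple depolarisation to gene expression and pacemaking, P/Q- and N-type channels trigger transmitter release, T-type channels support burst firing, and sodium channels start and carry the action potential. Adarb1 encodes ADAR2, which deaminates adenosine to inosine where RNA is double-stranded. Cacna1d transcripts are a known substrate, edited in the part that encodes the calmodulin-binding IQ motif. The array measures transcript level and does not read the edited base.

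Adarb1, the targeted gene, is at chromosome 10, positions 77290726 to 77418273 on the minus strand in the coordinates of the deposited table. Its log2 signal was 10.5 and 10.45 in the wild-type arrays and 9.16 and 8.96 in the knockout arrays, a log2 difference of -1.415 (SE 0.118, limma, Benjamini-Hochberg adjusted p = 0.409, n = 2 per group). The direction was that of the labels. Which exons the deletion removed and which of them the probes read was not examined. The 4 arrays had median log2 signals from 6.03 to 6.09 and pairwise Pearson correlations across clusters from 0.993 to 0.995. Markers of salivary gland averaged 7.02 in knockout replicate 1 against 4.93 to 5.04 in the other arrays. Bpifa2 at 12.61, Dcpp1 at 10.2, Smr3a at 8.47 and Amy1 at 7.7 carried that mean. Aqp5, Prol1 and the Muc19 clusters were close to the other arrays. Markers of olfactory bulb averaged 7.49 in knockout replicate 2 against 7.89 to 7.99, although Slc17a6 was highest there, at 9.85. Anterior pituitary markers averaged 5.14 and 4.82 in wild type and 6.09 and 5.81 in knockout, with log2 differences of 4.115 for Prl and 3.165 for Gh and a median of 0.18 over the 9 clusters. Neuron markers averaged 11.11 to 11.13 and glia markers 9.29 to 9.44. In whole brain, fewer cells of a type and less RNA per cell cannot be told apart.

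The deposited table placed the single Cacna1d cluster at chromosome 14, positions 30039939 to 30491156 on the minus strand, which spans transcripts from both RefSeq start sites of the gene. The start sites lie 137.7 kb apart. The 250 bases before each are shown because Cacna1d is the member whose RNA is edited and because its 1 signal covers both starts. Each is written 5′ to 3′ on the gene's strand from RefSeq (build GRCm38.p6), with matches to TATAAA or GGGCGG, searched on both strands, in capitals.
Cacna1d upstream start, chr14:30491157-30491406, minus strand: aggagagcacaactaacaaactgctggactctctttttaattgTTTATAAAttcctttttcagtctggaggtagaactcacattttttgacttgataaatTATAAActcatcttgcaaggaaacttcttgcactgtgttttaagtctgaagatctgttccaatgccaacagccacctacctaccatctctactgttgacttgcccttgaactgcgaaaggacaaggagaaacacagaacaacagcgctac
Cacna1d downstream start, chr14:30353487-30353736, minus strand: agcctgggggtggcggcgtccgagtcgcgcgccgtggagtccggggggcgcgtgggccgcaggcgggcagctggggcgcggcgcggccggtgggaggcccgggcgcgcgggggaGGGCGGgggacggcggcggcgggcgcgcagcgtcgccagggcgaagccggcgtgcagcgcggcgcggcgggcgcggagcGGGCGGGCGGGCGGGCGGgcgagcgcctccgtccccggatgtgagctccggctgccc
The 2 windows differed in base composition. The upstream one had 39.6% G and C, 2 CpG dinucleotides and 3 TATAAA matches, of which a pair overlap on opposite strands within the run TTTATAAA, and no GGGCGG match. The downstream one had 86.4% G and C, 50 CpG dinucleotides and 5 GGGCGG matches, of which 4 overlap in 1 run, and no TATAAA match. Over 34 windows of 24 member genes found in the RefSeq table, 2 held TATAAA and 13 held GGGCGG, whereas 12.4% and 32.7% of all 32851 windows of that length did. A match describes the letters only.

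Cacna1d, the L-type pore subunit of pacemaking neurons and cochlear hair cells, had log2 signals of 8.63 and 8.51 in wild type and 8.64 and 8.48 in knockout. The values of the genotypes overlapped, and in each genotype replicate 1 was the higher array. The log2 difference was -0.01 (95% interval -0.298 to 0.278, limma adjusted p = 0.992). The interval gives the differences compatible with 2 arrays per group, and the smallest detectable difference was not computed. The sign turned to a difference of 0.024 after quantile normalization, and ranged from -0.09 to 0.07 when single arrays were left out.

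Across the whole array no cluster passed an adjusted p of 0.05 (0 of 33793, or 0.0%), and 2009 clusters (5.95%) had an unadjusted limma p below 0.05. Of the 36 channel clusters, 2 (5.56%) had such a p, Cacna2d4 and Scn3b, which is a share near that of the array. Both were lower in knockout, where the array's share of lower clusters was 2.31% and of higher clusters 3.64%. No channel cluster had an unadjusted p below 0.05 in the higher direction. The median log2 difference of the channel clusters was -0.01, with 13 above 0, 20 below and 3 at 0. That of all 33793 clusters was 0.005, with 16133 below 0. Among the 16896 clusters brighter than the array's median the median was -0.025, with 9679 below 0. The 30 channel clusters among them had a median of -0.02, with 19 below 0. The direction of the channel median depended on scaling: it was -0.05 after median centring, which moved the median of all clusters to -0.035, and 0.013 after quantile normalization.

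**Figure D1:**
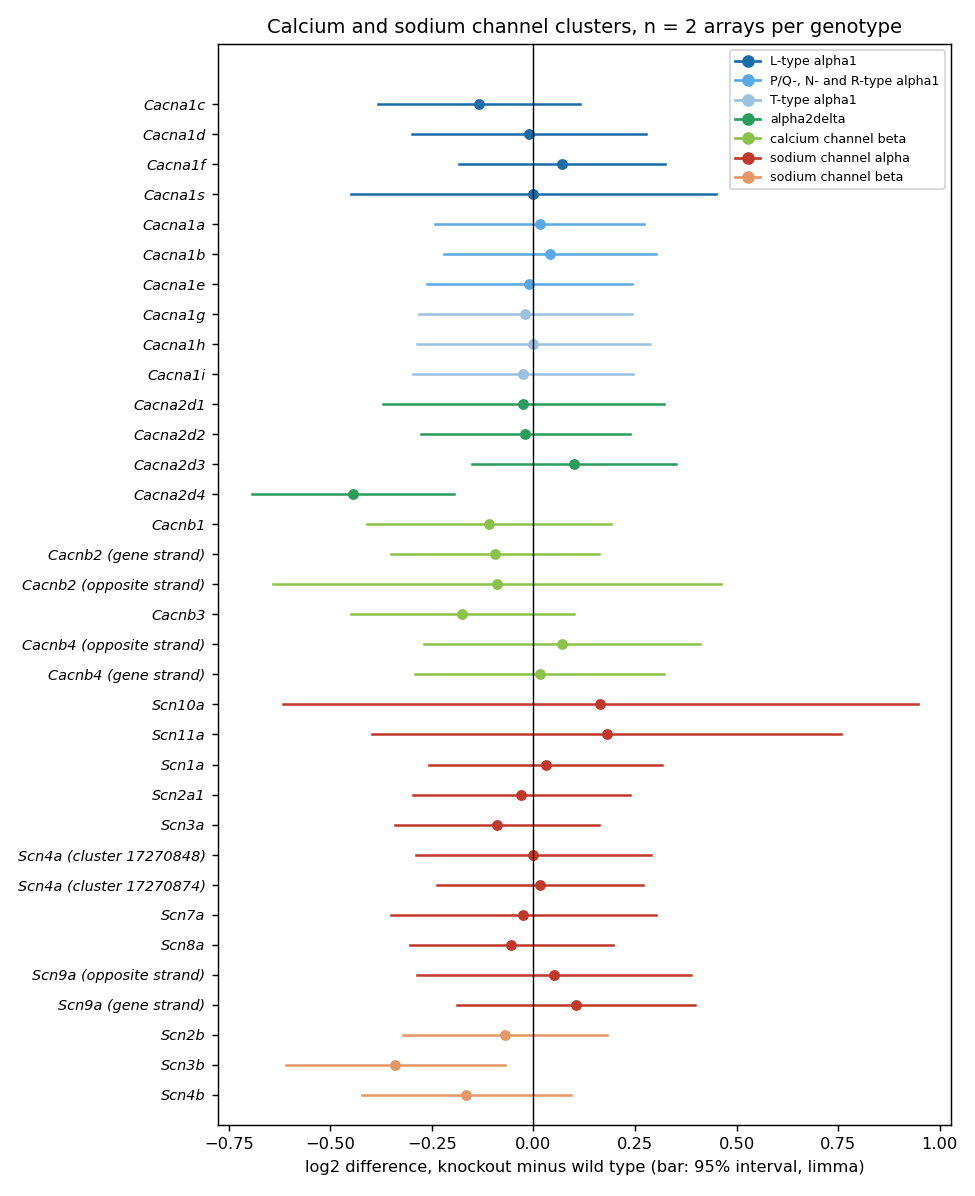
Log2 difference, knockout minus wild type, of 34 channel clusters (rows, coloured by subfamily) with the 95% limma interval as a bar, n = 2 arrays per genotype. The intervals of Cacna2d4 and Scn3b lie below 0 and those of the other 32 clusters shown include 0.

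The 9 channel clusters whose knockout values all lay below the wild-type values were Cacna1c, Cacna2d4, Cacnb3, the gene-strand cluster of Cacnb2, Scn3a, Scn8a, Scn2b, Scn3b and Scn4b, against 16.5% of all clusters. The 2 that lay above were Cacna1f and Cacna2d3, against 17.7%. Among bright clusters the shares were 21.9% lower and 12.4% higher. Median centring gave 11 lower and 1 higher channel clusters, where 23.4% and 12.5% of all clusters and 31.3% and 7.98% of bright ones lay so. Quantile normalization gave 7 and 2, against 17.2% and 16.2% of all clusters. In 11 of 36 channel clusters (30.6%) the difference was larger than the gap between replicates in either genotype, compared with 23.1% of the array. The smallest two-sided p of an exact permutation test with 2 arrays per genotype is 0.333, so a lack of overlap is no significant result for any of them.

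**Figure D2:**
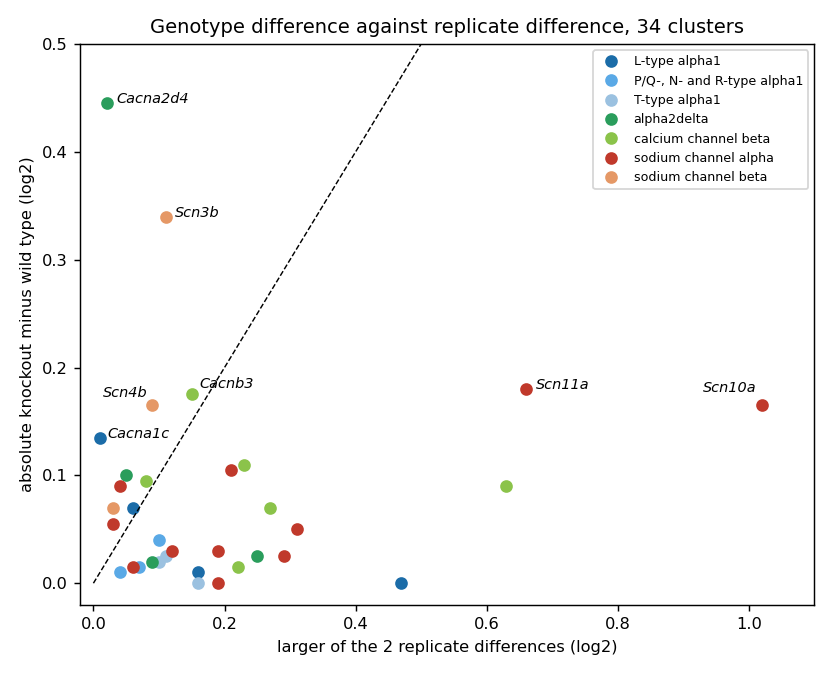
Size of the log2 difference between genotypes (vertical axis) against the larger of the gaps between replicates (horizontal axis) for 34 channel clusters, coloured by subfamily. The 11 clusters above the dashed line of equality differ by more than both replicate gaps, and Cacna2d4, with a difference of 0.445 in size and a largest gap of 0.02, lies farthest above it.

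Among the L-type alpha1 genes, Cacna1c, the most widely used L-type subunit of brain and heart, had the largest difference. Its log2 signal was 9.76 and 9.75 in wild type and 9.62 and 9.62 in knockout, so that the groups did not overlap. The difference was -0.135 (95% interval -0.384 to 0.114, limma adjusted p = 0.873). Its unadjusted p was below 0.05 only in the test with pooled variance and no shrinkage, among the settings tried. Cacna1f, the L-type subunit of the retina, differed by 0.07 and Cacna1s, that of skeletal muscle, by 0. The knockout values of Cacna1s were 5.42 and 5.89 and enclosed the wild-type values of 5.55 and 5.76. The muscle markers averaged 6.17 to 6.27 over the 4 arrays and none had an unadjusted p below 0.05.

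The presynaptic alpha1 genes differed little. Cacna1b, which encodes the N-type pore, had signals of 9.3 and 9.26 in wild type and 9.37 and 9.27 in knockout, a difference of 0.04 (limma adjusted p = 0.976). This was the largest difference of the subfamily and its groups overlapped. Cacna1a, which encodes the P/Q-type pore, differed by 0.015 (95% interval -0.243 to 0.273) and Cacna1e, the R-type pore, by -0.01 (-0.262 to 0.242). The T-type genes lay equally close to 0. Cacna1i, expressed in thalamus, had signals of 9.2 and 9.3 in wild type and 9.28 and 9.17 in knockout, a difference of -0.025 (limma adjusted p = 0.983) with overlapping groups. Cacna1g differed by -0.02 and Cacna1h by 0.

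Cacna2d4 encodes an alpha2delta subunit best known from the photoreceptor synapse. Its cluster had the smallest p of all channel clusters, below 0.05 before adjustment. The log2 signal was 6.41 and 6.4 in wild type and 5.97 and 5.95 in knockout, so that the groups did not overlap and the replicates of each lay within 0.02. The log2 difference was -0.445 (SE 0.101, 95% interval -0.694 to -0.196, limma adjusted p = 0.834), wild type being 1.36-fold higher. Over 13 alternative settings the difference stayed between -0.485 and -0.435. Settings that change only the variance or the set of clusters cannot move it from -0.445. It was -0.485 after median centring and -0.474 after quantile normalization. With single arrays left out it ran from -0.455 to -0.435, a range that the replicate gaps of 0.01 and 0.02 fix. In every setting that used all 4 arrays the unadjusted p was below 0.05. In the fits that leave out an array, the spread comes from the other genotype's pair and the array-wide prior, and the lone array is assumed to vary alike. The retina markers, at means of 5.53 and 5.55 in wild type and 5.56 and 5.69 in knockout, did not have lower values in knockout, and 0 of 8 had an unadjusted p below 0.05. The other alpha2delta genes had differences from -0.025 to 0.1. Cacna2d1, the main gabapentin-binding subunit, differed by -0.025 and Cacna2d2, which is prominent in cerebellum, by -0.02. Cacna2d3, whose groups did not overlap, was higher in knockout by 0.1 (limma adjusted p = 0.911).

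Of 6 other clusters within 100 kb of Cacna2d4, 4 were lower in knockout without overlap, 1 was higher and 1 overlapped, against 16.5% lower and 17.7% higher over all clusters and 21.9% and 12.4% among bright ones. Lrtm2 overlaps Cacna2d4 on the opposite strand in the table's coordinates. Its signals were 7.42 and 7.63 in wild type and 7.19 and 7.32 in knockout, without overlap, and its difference was -0.27 (limma adjusted p = 0.835). The other lower ones were Cacna1c, which lies 40.1 kb away, Wnt5b at -0.125 and a cluster of Dcp1b at -0.125, whose second cluster differed by 0.01. Adipor2 had a difference of 0.175 (limma adjusted p = 0.854). Whether RNA of the overlapping gene enters the Cacna2d4 signal was not tested.

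The calcium channel beta subunits bind the pore subunit and aid its delivery to the membrane. Cacnb3 had the largest difference of the 6 clusters for 4 genes, with signals of 10.27 and 10.33 in wild type and 10.2 and 10.05 in knockout. The groups did not overlap, and the difference was -0.175 (95% interval -0.45 to 0.1, limma adjusted p = 0.856). It was -0.1 without knockout replicate 2 and ranged to -0.25 with other arrays left out. Cacnb1 differed by -0.11, with overlap. The gene-strand cluster of Cacnb2 differed by -0.095 without overlap and its opposite-strand cluster by -0.09, the knockout arrays of the latter being 0.63 apart. Cacnb4 gave 0.015 on its gene strand and 0.07 on the opposite strand. The median of the 6 clusters was -0.0925, yet it became 0.0075 without knockout replicate 1. The 4 gene-strand clusters had a median of -0.1025 with all arrays and -0.14 without that one.

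The sodium channel alpha genes include the axonal channels of the brain and those of muscle and sensory neurons. The brain channels Scn1a, Scn2a1 (now Scn2a), Scn3a and Scn8a differed by 0.03, -0.03, -0.09 and -0.055. Of these, Scn3a and Scn8a had groups without overlap and knockout lower. Scn8a, the main channel of nodes of Ranvier, had signals of 10.24 and 10.27 in wild type and 10.19 and 10.21 in knockout. Scn11a, of nociceptive sensory neurons, had the largest difference, with signals of 3.91 and 4.19 in wild type and 3.9 and 4.56 in knockout. The groups overlapped, the difference was 0.18 (limma adjusted p = 0.937), and it ran from -0.15 to 0.51 with single arrays left out. Scn10a, also a channel of sensory neurons, had knockout values of 4.67 and 5.69, a gap of 1.02, and a difference of 0.165. It was 0.675 without knockout replicate 1 and -0.345 without knockout replicate 2, so its direction turns with the array left out. Each of these fits gave an unadjusted p below 0.05, in opposite directions, with the spread taken from the wild-type pair, whose gap was 0.05, and the prior. Y-linked genes, which female mice lack, read 3.44 to 5.16 on these arrays, a range that holds all values of Scn11a and part of those of Scn10a. Sensory ganglion markers averaged 5.91 to 6.01 over the arrays. Scn4a, of skeletal muscle, gave 0 and 0.015 in its 2 clusters, Scn7a, an atypical sodium-sensing channel, -0.025, and Scn9a 0.105 on its gene strand and 0.05 opposite. With all arrays, no sodium channel alpha cluster had an unadjusted p below 0.05.

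The sodium channel beta genes encode single-pass membrane proteins that modulate gating and cell adhesion. Scn3b had signals of 10.22 and 10.31 in wild type and 9.87 and 9.98 in knockout, without overlap. The difference was -0.34 (SE 0.109, 95% interval -0.609 to -0.0707, limma adjusted p = 0.834), wild type being 1.27-fold higher. Without knockout replicate 1 it was -0.285 and without wild-type replicate 2 it was -0.295, and in neither fit was the unadjusted p below 0.05. Scn4b, prominent in striatum, had signals of 9.36 and 9.36 in wild type and 9.15 and 9.24 in knockout, and a difference of -0.165 (limma adjusted p = 0.856). Scn2b, with 10.45 and 10.48 in wild type and 10.41 and 10.38 in knockout, differed by -0.07 without overlap. The median of the 4 was -0.1175 as deposited, -0.1575 after median centring and -0.07875 after quantile normalization. Markers of striatal projection neurons, a list chosen after these values were seen, lay below 0 in 8 of 9 clusters with a median of -0.15. Of 16896 clusters brighter than the array's median, 9679 lay below 0. The part of striatal neurons in the Scn4b value was not tested.

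**Figure D3:**
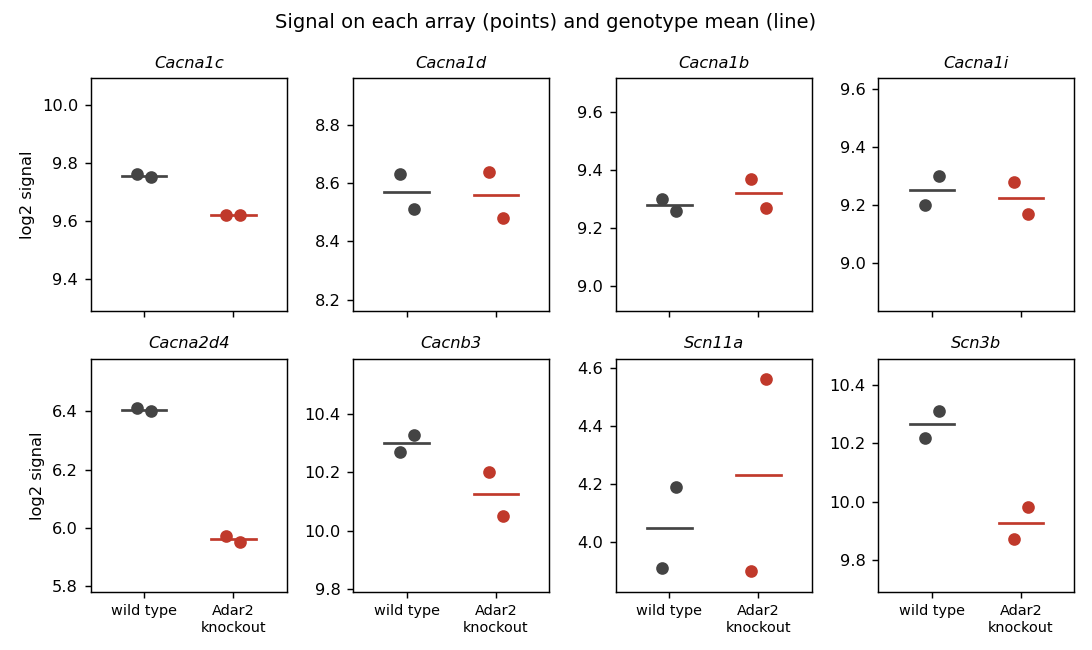
Log2 signal (vertical axis) of each array for 8 channel clusters, 1 panel per cluster, in wild type and Adar2 knockout, with a line at the mean of 2 arrays and every axis spanning the same log2 range. Shown are Cacna1d, the clusters with an unadjusted p below 0.05 and the largest difference of each subfamily. In Cacna1c, Cacna2d4, Cacnb3 and Scn3b both knockout points lie below both wild-type points, and in Cacna1b, Cacna1d, Cacna1i and Scn11a the genotypes overlap.

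Grouped by role, after the values were seen, the 22 pore-forming clusters had a median difference of 0 with none at an unadjusted p below 0.05, and the 14 auxiliary clusters a median of -0.08, with 11 below 0 and 2 (14.3%) at such a p, against 5.95% of all clusters, and bright clusters had a median of -0.025. The auxiliary median was -0.12 after median centring and -0.0425 after quantile normalization. Because the grouping followed the values, it is not an independent result. Genes whose products bind or regulate these channels were listed apart. Of 59 such clusters, 1 (1.69%) had an unadjusted p below 0.05, against 5.95% of the array. The count was 3 with an intensity trend, median centring, pooled variance or the replicate block. Of all clusters, 5.83%, 6.01%, 5.61% and 5.01% had such a p in these settings. The 1 partner cluster first counted was Stac3, an adaptor for L-type channels. It had 5.84 and 5.77 in wild type and 6.19 and 6.09 in knockout (difference 0.335, limma adjusted p = 0.834). The calmodulin family (10 clusters), presynaptic calcium channel partners (16) and sodium channel partners (14) had none, and calcium channel regulators had this 1 of 19. The sodium channel partners had a median of -0.035 with 11 of 14 below 0, and all 59 clusters a median of -0.025. Beside these and the auxiliary counts, 16133 of 33793 clusters on the array lay below 0. Among the 16896 brighter than the array's median, 9679 did.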

How the data were processed

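The values are log2 signals that the authors deposited, made with RMA in Affymetrix Expression Console per the submitters' processing notes, versions not given in the sources used here. RMA corrects background, normalizes and summarises probes. Depth does not apply to arrays, and their number limits the precision. The deposited table also holds fold changes and p-values of the authors' own comparison, which were not used. Coordinates are the table's, with no build named.

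All 33793 clusters were fitted with limma 3.58.1 in R 4.3.3 (genotype only, two-sided, Benjamini-Hochberg adjustment over all clusters), without a filter. The fit used a prior SD of 0.125 and 3.79 prior degrees of freedom. Replicates were separate samples per the labels, whose p-values measure only the spread between these arrays. The labels do not say whether a replicate number pairs arrays across genotypes, and pairing was not tested. Deviations from the genotype mean correlated at 0.0516 between arrays of the same number, which cannot decide it with 2 arrays per genotype. Alternatives were median centring, quantile normalization, a signal filter, other variance models, a replicate block and leaving out each array. Use of gene-strand clusters only, the striatal list, the grouping into pore-forming and auxiliary clusters and the Scn10a alternatives were added after seeing the data. All 36 channel clusters overlap their gene's GRCm38.p6 span and are marked as not cross-hybridizing. Of the 28 with a strand in the promoter table, 3 lie on the opposite strand. The naming rule took Adarb1, every channel cluster, and partners with an unadjusted p below 0.05. However, 2 channel clusters that enter the counts and medians are not reported singly or plotted here. Other partners, neighbouring genes and single markers are named outside this rule. By this rule arrays were listed for Cacna1d, members with an unadjusted p below 0.05 and the largest difference of each subfamily. Array values of Cacna1s, Scn2b, Scn4b, Scn8a and Scn10a, other partners, and neighbouring genes were chosen after their values were seen. The members and lists were chosen with earlier results of these data known. Figures were drawn with matplotlib 3.10.9.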

Additional observations from a re-analysis of the deposited data

How the results depend on the processing

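Over 13 alternative settings, Adarb1 stayed between -1.515 and -1.315 and Cacna2d4 between -0.485 and -0.435 on the log2 scale. Settings that change only the variance or the set of clusters cannot move these differences. Each gene had an unadjusted p below 0.05 in every setting that used all 4 arrays. Scn3b kept such a p in 11. The number of channel clusters with such a p was 2 as reported, 2 with the replicate block, 3 with pooled variance, which added Cacna1c, and 1 to 3 with single arrays left out (1 to 3 lower, 0 to 1 higher), where Scn10a was added as higher without knockout replicate 1 and as lower without knockout replicate 2. The channel median of -0.01 was -0.05 after median centring and ran from -0.055 to 0.015 with single arrays left out. Signs turned for Cacna1d (0.024 after quantile normalization, -0.09 to 0.07 with arrays left out), Cacna1i (0.02 and -0.08 to 0.03), Cacna1b (-0.01 to 0.09), Scn11a (-0.15 to 0.51) and Scn10a (-0.345 to 0.675), all with intervals that included 0 as reported. The cause was not tested. The partner count of 1 was 3 with an intensity trend, 3 after median centring, 3 with pooled variance, 3 with the replicate block, 2 without cross-hybridizing clusters, 2 above the median signal and 0 to 1 with arrays left out. Across the array, clusters past an adjusted p of 0.05 numbered 0, and 15 with pooled variance. Those past an unadjusted p numbered 2009, split 1230 higher and 779 lower as deposited while median centring gave 2030, of them 1229 lower. They were 989 above the median signal, where fewer clusters were tested, 1693 with the replicate block and 1221 to 1801 with arrays left out.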

Other observations

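Among the listed partners whose unadjusted p lay between 0.05 and 0.1, singled out after their values were seen, Nedd4l, a ubiquitin ligase that acts on sodium channels, had signals of 10.53 and 10.44 in wild type and 10.23 and 10.24 in knockout, a difference of -0.25 (limma adjusted p = 0.834). Rem2, a GTPase that inhibits high-voltage-activated calcium channels, had 7.87 and 7.73 in wild type and 7.62 and 7.39 in knockout, a difference of -0.295 (limma adjusted p = 0.835). A cluster of Nrxn2, a presynaptic adhesion protein, had 8.46 and 8.76 in wild type and 8.81 and 9.0 in knockout, a difference of 0.295 (limma adjusted p = 0.835), and the gene's other cluster differed by 0.05. The groups of Nedd4l, of Rem2 and of the first Nrxn2 cluster did not overlap. Of 5 other clusters within 100 kb of Scn3b, 3 were lower in knockout without overlap, 1 was higher and 1 overlapped, against 16.5% lower and 17.7% higher over all clusters. The lower ones were Zfp202 at -0.225, Gramd1b at -0.195 and an unnamed cluster at -0.115. The signals of the unnamed cluster, 2.02 to 2.17, lay below the 3.44 to 5.16 of the Y-linked genes. Olfr986, which overlapped, differed by -0.025 and 1700110K17Rik by 0.255 (limma adjusted p = 0.835).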
